A study of Solanum lycopersicum with 12 samples.

Results

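Salicylic acid signalling in tomato seedlings was followed through 3 genes, the regulators EDS1 and NPR1 and the output gene PR1b1, on Agilent 2-colour tomato arrays. The probes A_96_P017806 (EDS1), A_96_P021036 (NPR1) and A_96_P015471 (PR1b1) were taken, together with every other non-control probe that carried the same transcript accession in the scanner files. The 3 genes are 3 of 33703 sequence identifiers on the array and were measured by 9 of 43603 probes, of which 1 was for EDS1, 2 were for NPR1 and 6 were for PR1b1. The 3 probes named first are called the named probes.

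Salicylic acid is a plant hormone that accumulates during defence against pathogens and drives the expression of pathogenesis-related (PR) genes. EDS1 (enhanced disease susceptibility 1) is a lipase-like protein that acts downstream of intracellular immune receptors and promotes salicylic acid accumulation. NPR1 (non-expressor of PR genes 1), known mostly from Arabidopsis, is a salicylic acid receptor and a transcriptional coactivator that works with TGA transcription factors at PR gene promoters. PR1b1 encodes a secreted protein of the PR-1 family, whose transcript is a customary marker of the salicylic acid response. The study's authors propose, from qPCR, that the PR1b1 rise with the bacterial filtrate used here does not need salicylic acid and may follow ethylene. That proposal was not tested here.

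Whole seedlings of Solanum lycopersicum aged 15 days were kept in liquid MS medium and given control solution, flg22 at 1 µM or MBI600 CFCF at 1/5 of the volume, and were collected 6 or 24 h later. Flg22 is a peptide of bacterial flagellin that plants perceive at the cell surface. MBI600 CFCF is the cell-free culture filtrate of the biocontrol bacterium Bacillus amyloliquefaciens MBI600. The control was LB broth in MS at the same share of the volume according to the study's methods, whereas the sample labels give water, and no LB is described for the flg22 groups. Where flg22 is compared with the control or with MBI600 CFCF, any difference in medium cannot be told apart from the treatment. The 3 treatments and the times of 6 and 24 h made 6 groups, with 2 arrays per group and 12 arrays in all, and each array carried RNA from a pool of 2 seedlings. The sources do not say whether both pools of a group came from the same experiment. Since whole seedlings were pooled, a change in the share of a cell type and a change in RNA per cell cannot be told apart.

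Levels are log2 values of the green signal, the channel of the seedling sample, after background correction and quantile normalization. A probe was called changed when the adjusted p was under 0.1 and the absolute log2 fold change was at least 2. Between 69.8% and 81.7% of the non-control spots of an array were well above background and 0 were saturated. Replicates correlated at 0.970 to 0.993 across probes. The arrays lay on 3 slides of 4, and both arrays of a group were never on the same slide. All 16 green shoot marker genes that could be measured were detected on all 12 arrays, and so were 8 of 11 root marker genes. The root phosphate transporter gene PT4 was above background on 0 arrays. The summed log2 level of the shoot markers was 19.26 and 19.66 in the control, 19.17 and 19.48 with flg22 and 19.62 and 19.66 with MBI600 CFCF at 6 h, and lay between 19.73 and 20.05 in the 3 groups at 24 h. That of the root markers was 13.91 and 14.9 in the control, 14.24 and 14.62 with flg22 and 13.88 and 14.06 with MBI600 CFCF at 6 h. At 24 h it was 14.56 and 14.92 in the control, 14.11 and 14.5 with flg22 and 14 and 14.23 with MBI600 CFCF, so that both treated groups were below the control. Bright probes weigh most in this sum, such as TPRP-F1 (control 13.42 and 13.56, flg22 12.23 and 12.60). Single root markers went both ways at 24 h. Of 11, 5 were higher than the control with flg22 (median log2 fold change −0.009) and 3 with MBI600 CFCF (median −0.35). The part of these marker shifts in the differences between treatments and between times was not tested.

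PR1b1 carried the wide variation and the regulators did not. The named PR1b1 probe spanned 6.67 log2 units over the 12 arrays, from 8.15 on control replicate 2 at 6 h to 14.81 on MBI600 CFCF replicate 1 at 24 h. EDS1 spanned 0.75 units, from 9.45 to 10.20, and the named NPR1 probe spanned 0.73 units, from 8.89 to 9.62. No member probe was called in any of the 11 comparisons.

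**Figure D1:**
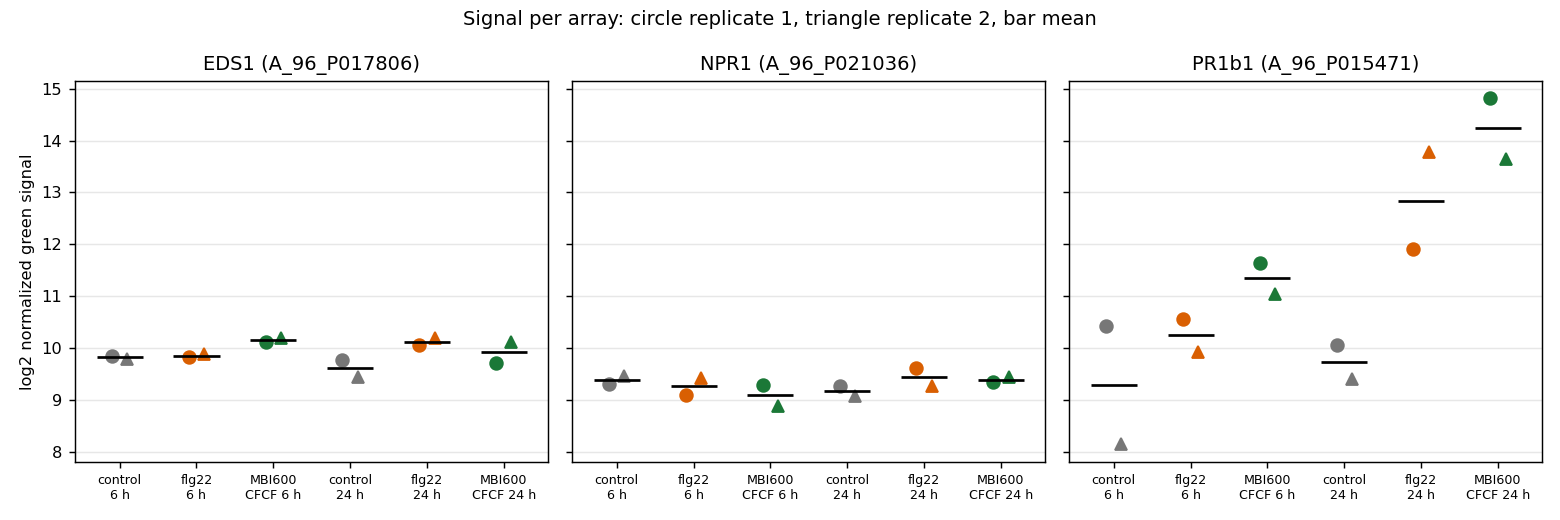
Log2 normalized green signal of the named probes of EDS1, NPR1 and PR1b1 on each of the 12 arrays, by group on the horizontal axis, with circles for replicate 1, triangles for replicate 2 and bars for the mean of 2 arrays. EDS1 stays between 9.45 and 10.20 and NPR1 between 8.89 and 9.62, while PR1b1 runs from 8.15 to 14.81 with its 4 highest arrays in the treated groups at 24 h.

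EDS1, at the head of the pathway, differed little between groups. Its level was 9.85 and 9.80 in the control at 6 h, 9.82 and 9.88 with flg22, and 10.12 and 10.20 with MBI600 CFCF. Both MBI600 CFCF arrays were thus above both control arrays at 6 h, as they were for 13.9% of all probes, whereas the flg22 arrays overlapped the control. At 24 h the level was 9.78 and 9.45 in the control, 10.05 and 10.20 with flg22, and 9.72 and 10.13 with MBI600 CFCF. Here both flg22 arrays were above both control arrays, as for 14.3% of all probes, and those of MBI600 CFCF overlapped them.

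The log2 fold change of EDS1 against the control was 0.33 at 6 h (95% confidence interval −0.03 to 0.70, adjusted p = 0.949) and 0.31 at 24 h (−0.06 to 0.67, adjusted p = 0.728) with MBI600 CFCF. With flg22 it was 0.03 at 6 h (−0.34 to 0.39, adjusted p = 1.00) and 0.51 at 24 h (0.15 to 0.88, adjusted p = 0.611). Its interval excluded 0 in the last of these, a 1.43-fold difference that ranked 1920 of 43603 probes from the highest. The flg22 effect at 24 h exceeded that at 6 h by 0.48 (−0.03 to 1.00, adjusted p = 1.00). The groups stood in the order control at 24 h, control at 6 h, flg22 at 6 h, MBI600 CFCF at 24 h, flg22 at 24 h and MBI600 CFCF at 6 h. Of the 5 neighbouring pairs in this order, the arrays of 4 overlapped. The exception was the control, whose arrays at 24 h were both below those at 6 h, as for 16.5% of all probes.

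NPR1, the coactivator, showed no separation from the control that was kept over time. Its level was 9.30 and 9.46 in the control at 6 h, 9.10 and 9.42 with flg22, and 9.29 and 8.89 with MBI600 CFCF. At 24 h it was 9.27 and 9.08 in the control, 9.62 and 9.27 with flg22, and 9.35 and 9.44 with MBI600 CFCF. The MBI600 CFCF arrays lay below both control arrays at 6 h, as for 15.6% of all probes, and above both at 24 h, as for 24.2%, and all neighbouring groups in the order of means overlapped.

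With MBI600 CFCF the log2 fold change of NPR1 was −0.29 at 6 h (−0.72 to 0.14, adjusted p = 0.949) and 0.22 at 24 h (−0.21 to 0.65, adjusted p = 0.769). With flg22 it was −0.12 (−0.55 to 0.31, adjusted p = 1.00) and 0.27 (−0.16 to 0.70, adjusted p = 0.971). The difference between the MBI600 CFCF effects at both times was 0.51 (−0.10 to 1.11) and did not pass the test (adjusted p = 0.620). All 4 intervals of the comparisons with the control lay inside a log2 change of 1 in either direction. The other NPR1 probe, A_96_P181264, was well above background on 3 of 12 arrays, with levels from 6.01 to 6.25, so no fold change is given for it.

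PR1b1, the output gene, was highest in the treated groups at 24 h. At 6 h the named probe read 10.43 and 8.15 in the control, 10.57 and 9.93 with flg22, and 11.65 and 11.04 with MBI600 CFCF. The MBI600 CFCF arrays were above both control arrays, as for 13.9% of all probes, and above both flg22 arrays, as for 17.2%. The arrays of flg22 and control overlapped. At 24 h it read 10.05 and 9.41 in the control, 11.91 and 13.78 with flg22, and 14.81 and 13.65 with MBI600 CFCF. All 4 treated arrays were above both control arrays, as for 24.2% of all probes with MBI600 CFCF and 14.3% with flg22. The arrays of the 2 treatments overlapped each other. The summed root markers were lower on the same 4 arrays (14 to 14.5) than in the control (14.56 and 14.92), although 5 of 11 single markers were higher with flg22 and 3 with MBI600 CFCF. The part of these markers in the difference was not tested.

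The log2 fold change of the named PR1b1 probe with MBI600 CFCF was 2.06 at 6 h (0.13 to 3.98, adjusted p = 0.949) and 4.51 at 24 h (2.58 to 6.43, adjusted p = 0.683), a 22.7-fold difference and the second highest of all 43603 probes in that comparison. With flg22 it was 0.96 at 6 h (−0.97 to 2.89, adjusted p = 1.00) and 3.12 at 24 h (1.19 to 5.04, adjusted p = 0.512), which is 8.67-fold and ranked 14. None of the 9 member probes was called in these comparisons. Over all probes, 0 (0%) were called for MBI600 CFCF at 6 h, 2 (0.00459%) at 24 h, 83 (0.190%) for flg22 at 6 h and 1 (0.00229%) at 24 h. The size and the interval of the PR1b1 difference at 24 h are therefore given without a call.

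**Figure D2:**
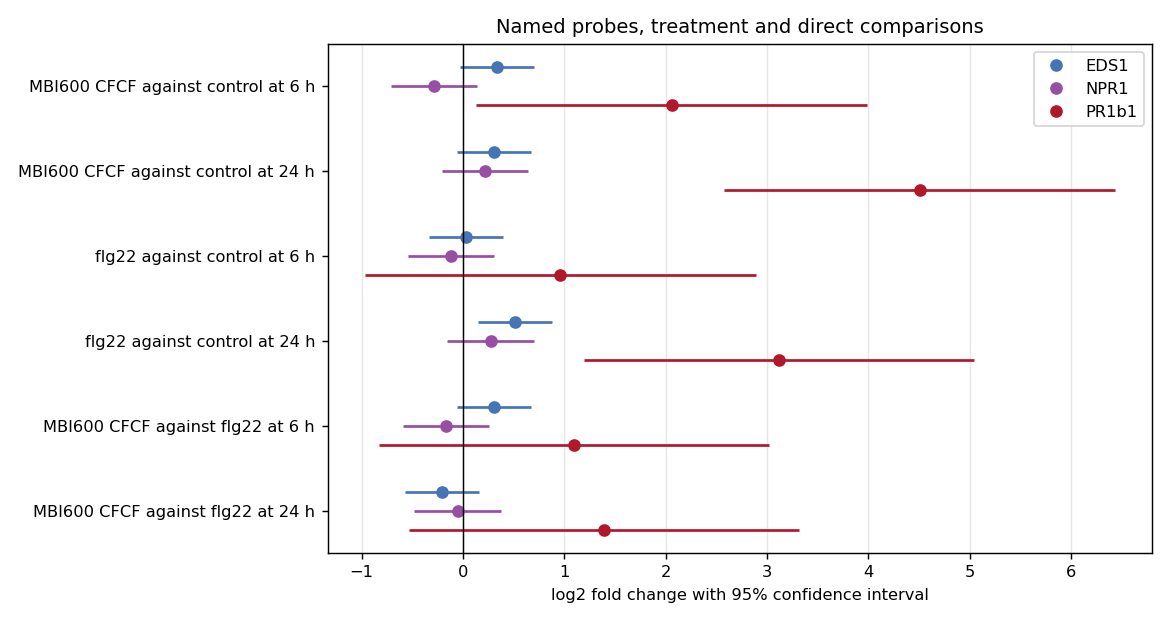
Log2 fold change with its 95% confidence interval on the horizontal axis for the named probes of EDS1, NPR1 and PR1b1, in the 4 comparisons with the control and the 2 direct comparisons of the treatments. EDS1 and NPR1 lie between −0.29 and 0.51, and the PR1b1 interval excludes 0 for MBI600 CFCF at 6 and 24 h and for flg22 at 24 h.

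Single arrays weighed on the PR1b1 values. The control arrays at 6 h differed by 2.29 log2 units, and without replicate 2 of that group the log2 fold change at 6 h was 0.91 for MBI600 CFCF and −0.18 for flg22, against 3.20 and 2.11 without replicate 1. At 24 h the flg22 value was 4.05 without its replicate 1 and 2.18 without its replicate 2. The MBI600 CFCF value at 24 h stayed between 3.93 and 5.09 when any of its 4 arrays was left out. Within slides, where treated and control arrays shared glass, the MBI600 CFCF difference was 1.22 and 2.90 at 6 h and 4.76 at 24 h, and the flg22 difference was 1.78 at 6 h and 1.86 and 4.37 at 24 h.

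MBI600 CFCF and flg22 were also compared directly. For PR1b1 the log2 difference of MBI600 CFCF minus flg22 was 1.096 at 6 h (−0.83 to 3.02, adjusted p = 0.993) and 1.39 at 24 h (−0.54 to 3.32, adjusted p = 0.998). For EDS1 it was 0.31 at 6 h and −0.21 at 24 h, and for NPR1 it was −0.17 and −0.05. All of these intervals include 0, and 0 members were called beside 45 (0.103%) of all probes at 6 h and 3 (0.00688%) at 24 h.

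Between 6 and 24 h, the interval of the named PR1b1 probe excluded 0 in both treated groups, without a call. The named probe was 2.59 log2 units higher at 24 h than at 6 h with flg22 (0.67 to 4.52, adjusted p = 0.533) and 2.89 higher with MBI600 CFCF (0.96 to 4.82, adjusted p = 0.346), with no overlap between the arrays of both times, as for 13.6% of all probes higher at 24 h with flg22 and 25.7% with MBI600 CFCF. In the control the difference was 0.44 (−1.49 to 2.37, adjusted p = 0.953) and the arrays overlapped. The treatment effect at 24 h exceeded that at 6 h by 2.45 for MBI600 CFCF (−0.28 to 5.17, adjusted p = 0.620) and by 2.16 for flg22 (−0.57 to 4.88, adjusted p = 1.00), so a change of the effect with time did not pass the test. For the PR1b1 probes A_96_P087629 and A_96_P137432 the flg22 difference between times was 1.46 and 1.51, beside 1.22 and 1.32 in the control. Their flg22 effect at 24 h exceeded that at 6 h by 0.24 and 0.19, and their MBI600 CFCF effect by 0.86 and 0.76. EDS1 was −0.21, 0.28 and −0.24 and NPR1 −0.21, 0.18 and 0.30 on the same scale in control, flg22 and MBI600 CFCF. No member was called among 0 (0%), 48 (0.110%) and 5 (0.0115%) called probes for the 3 treatments in that order, nor among 0 (0%) and 1 (0.00229%) for the effects of MBI600 CFCF and flg22 between times.

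Over both times together, an exact two-sided permutation of treated and control arrays within each time had 36 arrangements and could not give a p below 0.0556. With MBI600 CFCF the mean log2 difference was 3.28 for PR1b1 (exact p = 0.0556, the smallest possible), 0.32 for EDS1 (exact p = 0.111) and −0.04 for NPR1 (exact p = 0.833). With flg22 it was 2.04 for PR1b1 (exact p = 0.111), 0.27 for EDS1 (exact p = 0.111) and 0.08 for NPR1 (exact p = 0.778). Adjusted over these 6 comparisons by the Benjamini-Hochberg method, exact p was 0.166 for PR1b1 and EDS1 and 0.833 for NPR1 with both treatments.

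The transcript of the output gene did not follow that of either regulator closely from array to array. Across the 12 arrays the named PR1b1 probe correlated with EDS1 at Pearson's r of 0.445 (Spearman's rho 0.483) and with NPR1 at 0.149 (0.0769), and EDS1 with NPR1 at 0.0854 (−0.00699). The arrays share groups and slides, so these are descriptions without a test. The narrow range of EDS1 and NPR1 (0.75 and 0.73 log2 units) limits such a correlation, and regulator protein was not measured. Within the 6 groups, the replicate with more PR1b1 also had more EDS1 in 3 groups and more NPR1 in 2. In MBI600 CFCF at 24 h, replicate 1 had the highest PR1b1 of all arrays (14.81) with an EDS1 level of 9.72, between the control arrays of that time, and replicate 2 had less PR1b1 (13.65) and more EDS1 (10.13).

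**Figure D3:**
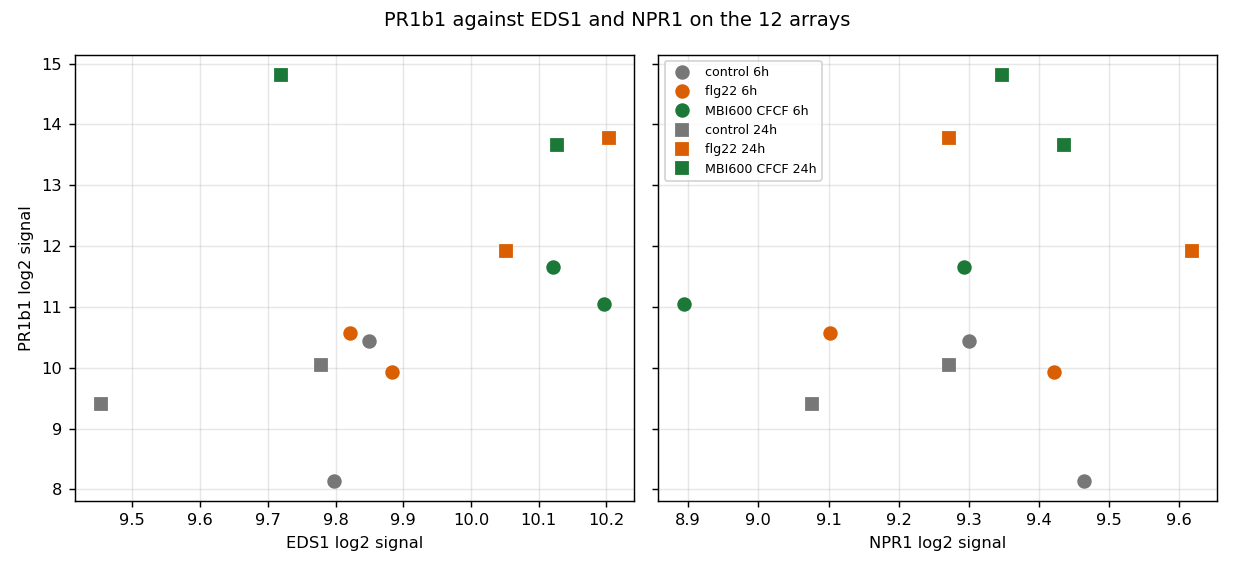
Log2 signal of the named PR1b1 probe on the vertical axis against EDS1 (left) and NPR1 (right) on the 12 arrays, with 1 point per array, coloured by treatment, circles for 6 h and squares for 24 h. The vertical axis covers 6.67 units of PR1b1, whereas the horizontal axes cover 0.75 units of EDS1 and 0.73 of NPR1.

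The 6 PR1b1 probes measure the same accession and the same RNA, so they are not replicates of a condition. All 6 had a positive log2 fold change in each of the 4 comparisons with the control. With MBI600 CFCF it ranged from 0.95 to 2.06 at 6 h (median 1.52) and from 1.82 to 4.51 at 24 h (median 3.56). With flg22 it ranged from 0.42 to 0.96 at 6 h (median 0.58) and from 0.74 to 3.12 at 24 h (median 2.24). The median over all probes was between −0.02 and 0.00 in the same comparisons.

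At an unadjusted p under 0.05, 3 of the 6 were higher at 6 h with MBI600 CFCF, where 1.34% of all probes were, and 6 of 6 at 24 h, against 2.86%. For flg22 the counts were 0 of 6 at 6 h, against 3.22%, and 4 of 6 at 24 h, against 2.86%. A log2 fold change of at least 2 was reached by 1 of 6 (MBI600 CFCF at 6 h, 0.0527% of all probes), 4 of 6 (MBI600 CFCF at 24 h, 0.0573%), 0 of 6 (flg22 at 6 h, 0.312%) and 3 of 6 (flg22 at 24 h, 0.177%). Both MBI600 CFCF arrays were above both control arrays for 6 of 6 probes at 6 and at 24 h, as for 13.9% and 24.2% of all probes. For flg22 this held for 1 of 6 at 6 h and 4 of 6 at 24 h, beside 13.7% and 14.3%.

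The probes fell into groups of 4 and 2 by their pattern, which was seen in the values and not fixed in advance. A_96_P137462, A_96_P139547 and A_96_P145311 followed the named probe at r of 0.973 to 0.995, with log2 fold changes of 3.15 to 4.08 for MBI600 CFCF and 1.99 to 2.72 for flg22 at 24 h. A_96_P087629 and A_96_P137432 correlated with each other at 0.998 and with the named probe at 0.894 and 0.899. Their log2 fold changes at 24 h were 1.82 and 1.91 with MBI600 CFCF and 0.74 and 0.80 with flg22.

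These 2 probes also differed from the rest in the control. A_96_P087629 read 9.10 and 8.16 in the control at 6 h and 9.72 and 9.99 at 24 h, and A_96_P137432 read 9.998 and 8.98 at 6 h and 10.58 and 11.03 at 24 h. Both control arrays at 24 h were above both at 6 h, as for 16.1% of all probes, with log2 differences of 1.22 (−0.43 to 2.88) and 1.32 (−0.39 to 3.02), while the other 4 probes differed by 0.37 to 0.44 with overlapping arrays. With flg22 at 24 h, A_96_P087629 read 9.495 and 11.69, so that replicate 1 was below both control arrays and replicate 2 above both. Without that replicate 2 the flg22 log2 fold changes of A_96_P087629 and A_96_P137432 were each −0.36.

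The probes of the gene shared the direction of the replicate difference in 4 of the 6 groups. Replicate 1 was above replicate 2 for 6 of 6 PR1b1 probes in the control at 6 h, by 0.80 to 2.29 log2 units, and in MBI600 CFCF at 24 h, by 1.03 to 1.49. In flg22 at 24 h, replicate 2 was above replicate 1 for 6 of 6, by 1.86 to 2.61. In flg22 at 6 h replicate 1 was above for 6 of 6 by 0.0569 to 0.664, whereas the probes disagreed in MBI600 CFCF at 6 h (replicate 1 above for 3 of 6) and in the control at 24 h (4 of 6), with differences of at most 0.913 and 0.646. A_96_P139547 and A_96_P145311 were not well above background on replicate 2 of the control at 6 h, and all 6 probes were lowest on that array and highest on MBI600 CFCF replicate 1 at 24 h.

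**Figure D4:**
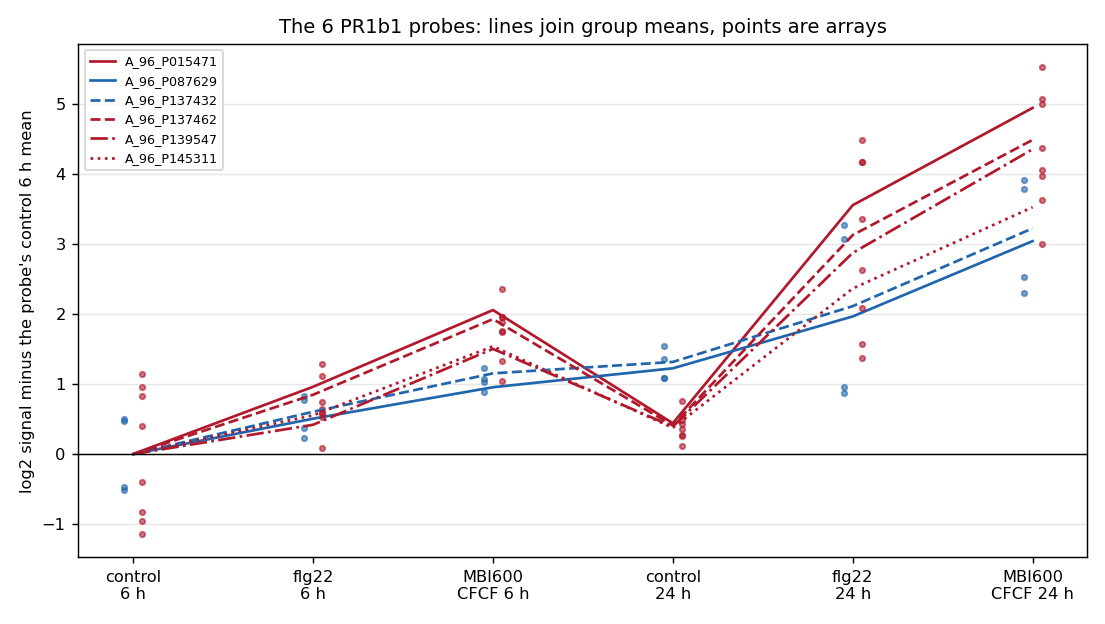
Log2 signal of the 6 PR1b1 probes minus each probe's own mean in the control at 6 h, by group, where lines join group means and points are single arrays. The 4 probes in red have log2 fold changes against the control at 24 h of 3.15 to 4.51 with MBI600 CFCF, and the 2 in blue have 1.82 and 1.91 from a control that stands 1.22 and 1.32 higher at 24 h than at 6 h.

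Other genes of salicylic acid synthesis, signalling and response were described through a list, of which 24 genes besides the members were measured, each by its brightest probe. No gene of the list was called in any comparison. At an unadjusted p under 0.05, 4 were higher and 1 lower with MBI600 CFCF at 6 h, 5 and 0 at 24 h, 9 and 1 with flg22 at 6 h, and 8 and 1 at 24 h. Over all probes 1.34% were higher and 1.22% lower, 2.86% and 3.33%, 3.22% and 1.62%, and 2.86% and 3.20% in this order. PR output genes were 3 and 5 of those higher with MBI600 CFCF at 6 and 24 h, and 5 and 6 with flg22. Of the 4 metabolism and 2 other signalling genes, 0 were higher at this p with MBI600 CFCF at either time. With flg22, 1 metabolism gene was higher at each time. The median log2 fold changes of the 24 genes were 0.23, 0.24, 0.61 and 0.34, beside medians between −0.02 and 0.00 over all probes.

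Among the 11 other PR output genes, 9 had a positive log2 fold change with MBI600 CFCF at 6 h and 9 at 24 h, of which 8 were positive at both times, and with flg22 10 and 8 were positive, 8 of them at both times. PR-P2, a PR-4 type protein, read 10.15 and 10.01 in the control at 24 h, 10.89 and 12.20 with flg22, and 12.71 and 12.37 with MBI600 CFCF. Its log2 fold changes with MBI600 CFCF were 1.24 at 6 h and 2.46 at 24 h (adjusted p = 0.949 and 0.555), and with flg22 0.81 and 1.47 (adjusted p = 1.00 and 0.446). PR-P2 was thus, like PR1b1, highest with MBI600 CFCF at 24 h. Its flg22 value at 24 h was 2.12 without replicate 1 of flg22 and 0.82 without replicate 2.

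P69B, a subtilisin-like protease, had log2 fold changes of 2.44 and 2.42 with MBI600 CFCF and 0.76 and 1.17 with flg22 at 6 and 24 h. Its flg22 arrays at 24 h read 8.17 and 11.29, beside 8.87 and 8.25 in the control, so that the value was 2.72 without replicate 1 of flg22 and −0.39 without replicate 2. At 6 h the flg22 value was 0.12 and 1.41 in the same order, whereas the MBI600 CFCF values of P69B stayed between 2 and 2.88 when any array was left out. The stress-induced gene TSI-1 had 2.03 and 2.28 with MBI600 CFCF and 2.04 and 1.77 with flg22, and the last of these was 2.67 without replicate 1 of flg22 and 0.86 without replicate 2.

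The list measured 4 chitinase genes. CHI3 had log2 fold changes of 0.69 and 0.77 with MBI600 CFCF and 1.20 and 2.31 with flg22 at 6 and 24 h (adjusted p = 0.196 at 24 h), CHI14 0.09 and 1.08 against 1.94 and 1.62, and CHI9 0.66 and 0.20 against 0.94 and 1.15. CHI17 had −0.29 and −0.18 with MBI600 CFCF and −0.40 and −0.08 with flg22, and each of its 4 values changed sign when a single array was left out. LOC543878, matched through its synonym PR5, went the other way from PR1b1 with MBI600 CFCF at 24 h. It read 10.72 and 11.37 there, beside 11.91 and 12.09 in the control, a log2 fold change of −0.96. Its other values were 0.68 with MBI600 CFCF at 6 h and 0.48 and −0.09 with flg22 at 6 and 24 h. The gene named PR-5 had −0.02 and 1.15 with MBI600 CFCF and 0.03 and 0.29 with flg22 at 6 and 24 h. It was well above background on only 5 of 12 arrays. With MBI600 CFCF at 24 h PR-5 read 6.56 and 7.89, beside 6.19 and 5.97 in the control. NP24-I had 0.10 and 0.27 with MBI600 CFCF and 0.99 and 1.035 with flg22. None of the values of these PR output genes passed the test.

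The transcription factor group had 7 measured genes with medians of 0.13 and −0.20 for MBI600 CFCF and 0.25 and 0.20 for flg22 at 6 and 24 h. PTI5, an ERF-type factor that interacts with the Pto kinase, had log2 fold changes of 0.98 and 0.51 with MBI600 CFCF and 0.99 and 1.84 with flg22 (adjusted p = 0.385 at 24 h). LOC543600 entered this group through its synonym TGA2.2 and had values from −0.20 to 0.24. GPA1, a G protein alpha subunit and no transcription factor, entered through its synonym TGA1 and had values from −0.35 to 0.42. The NPR1-like genes NML1 and NML2 lay between −0.16 and 0.33, close to NPR1 itself.

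In salicylic acid metabolism, SAMT, which methylates salicylic acid to its volatile ester, read 11.02 and 11.03 in the control at 6 h, 9.14 and 9.19 with flg22, and 10.59 and 9.17 with MBI600 CFCF. Its log2 fold change was −1.86 with flg22 at 6 h (adjusted p = 0.213), −1.15 with flg22 at 24 h, and −1.14 and −0.38 with MBI600 CFCF at 6 and 24 h. All its treated arrays at 6 h were below both control arrays, as for 15.7% of all probes with flg22 and 15.6% with MBI600 CFCF. Without replicate 1 the MBI600 CFCF value at 6 h was −1.86, and without replicate 2 it was −0.43. PAL5, a phenylalanine ammonia-lyase gene of the phenylpropanoid route, had 0.81 and 1.08 with flg22 and 0.19 and 0.74 with MBI600 CFCF, where the value at 6 h ran from −0.41 to 0.78 when a single array was left out. PAL3 had 0.74 and 0.70 with flg22 and 0.30 and 0.51 with MBI600 CFCF. PAL2 had 0.43 and 1.01 with flg22 and −0.03 and 0.04 with MBI600 CFCF. Both MBI600 CFCF values of PAL2, and its flg22 value at 6 h, changed sign when a single array was left out.

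**Figure D5:**
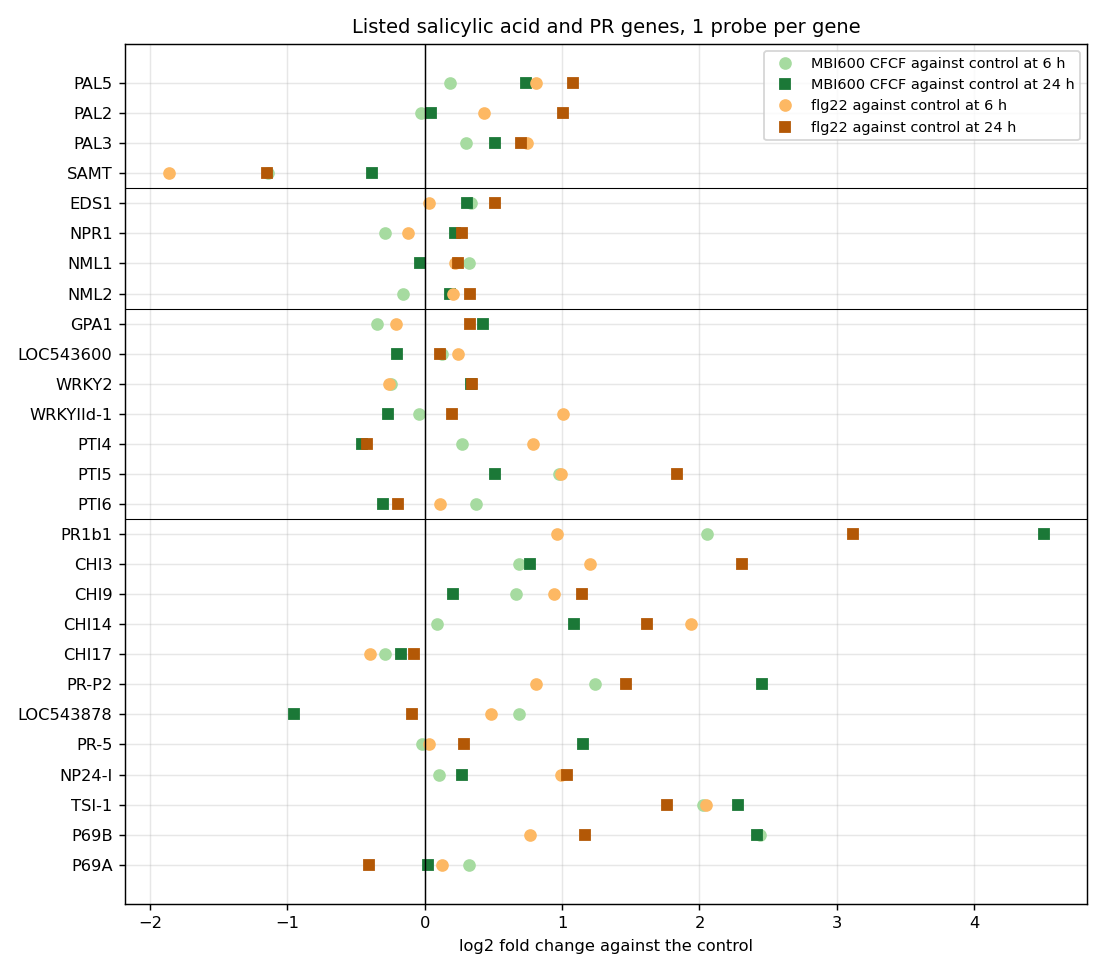
Log2 fold change against the control on the horizontal axis for the members EDS1, NPR1 and PR1b1 and the 24 other listed genes, with 1 probe per gene, circles for 6 h and squares for 24 h, and lines between the groups metabolism, signalling, transcription factors and PR output. PR1b1 with MBI600 CFCF at 24 h (4.51) lies farthest right, and SAMT with flg22 at 6 h (−1.86) farthest left.

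The 5 probes with the pattern most like each named probe over the 12 arrays were found by Pearson's r. They came from 30657 probes that were well above background on at least 10 of 12 arrays. Only the other probes of the same accession were left out, which for PR1b1 reached up to 0.995. Probes of the same gene under another accession could remain. Nearest to PR1b1 among them was A_96_P137452 at 0.998, with log2 fold changes of 1.94 and 4.50 for MBI600 CFCF and 0.78 and 2.93 for flg22 at 6 and 24 h. It carries no gene name here, so whether it measures PR1b1 or another gene is not known. A pair of PR-P2 probes was also among them, at 0.941 and 0.921. The 5 nearest to NPR1 have no gene name here and reached 0.944 to 0.956, the first being A_96_P099839. Nearest to EDS1 were probes at 0.818 to 0.842, of which GGPS1, a geranylgeranyl diphosphate synthase gene, was the named one.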

How the data were processed

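The scanner output of 12 arrays (Agilent Feature Extraction 10.7.3.1, per the file headers) holds the intensity of each spot and its local background in the green and red channels, deposited without normalization, and an intensity that the scanner software had background-subtracted and dye-normalized. The authors also deposited a table of log2 values, made from green intensities with normexp at an offset of 50 and quantile normalization. The same steps were run again in limma 3.58.1 (R 4.3.3) on the green medians and differed from that table by at most 5e-09, with quantile normalization before the log2 step. Outlier spots were set to missing (5 probe values), control spots were dropped and spots were averaged to 43603 probes.

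The model held a mean for each group over the 12 arrays. Tests used limma's empirical Bayes step, and p was adjusted by Benjamini and Hochberg's method across all probes. Every fold change, 95% confidence interval and adjusted p is from this fit unless an exact test is named. The number of arrays, 2 per group, limits the precision. The p-values measure the spread between the arrays of a group, in which pools of seedlings and slides are mixed. The sources used here do not say what was hybridised in the red channel. The steps were tested on simulated data.

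The text names every member probe, the genes of the salicylic acid list that matched 1 gene by symbol or synonym, and the 5 probes of other accessions most like each named probe, with at most 2 bare identifiers. Of the listed genes, those that illustrate a group were picked after their values were seen. Names come from the RefSeq gene table of assembly SLM_r2.1, which matched 4884 of 43603 probes to 2232 of 41476 genes. Members and lists were chosen with earlier results of these data known. No sequence or position is given, since no genome was used here. Alternatives covered background correction, normalization, outlier spots, dim probes, the green to red ratio, the deposited values, slide or replicate number as a term, other fits and thresholds, the mean of a gene's probes, and each array left out.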

Additional observations from a re-analysis of the deposited data

How the results depend on the processing

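For the 3 named probes in 11 comparisons, 665 values under alternatives kept their direction and their side of the call rule, 7 passed and 12 changed sign. Many of these values could not change sign. The other thresholds, the filter of dim probes, the other fits and the replicate block keep the main fold change, and the deposited values nearly equal it. The count is therefore no measure of robustness. The 7 that passed did so by fold change alone: PR1b1 with MBI600 CFCF against control at 6 h (2.06) and 24 h (4.51), with flg22 at 24 h (3.12), between times in flg22 (2.59) and MBI600 CFCF (2.89), and the difference between times of the MBI600 CFCF effect (2.45) and of the flg22 effect (2.16). These 7 follow from dropping the adjusted p, since their main values were already at least 2. By adjusted p alone 0 passed.

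Signs changed for the EDS1 difference between times of the MBI600 CFCF effect with the processed signal (0.0023), for NPR1 in MBI600 CFCF against flg22 at 6 h with the green to red ratio (0.12), and for PR1b1 in the control between times with slide as a term (−0.00036). Among the other PR1b1 probes, A_96_P139547 in the control between times was −0.56 with the ratio, and the flg22 effect between times was −0.074 for A_96_P087629 and −0.19 for A_96_P137432 with slide as a term. With an array left out, signs changed within these ranges: EDS1 with flg22 at 6 h −0.0024 to 0.059, and between times for the MBI600 CFCF effect −0.23 to 0.18; NPR1 with flg22 at 6 h −0.28 to 0.040, and against flg22 at 6 h −0.37 to 0.031 and at 24 h −0.23 to 0.12; PR1b1 with flg22 at 6 h −0.18 to 2.11, and in the control between times −0.70 to 1.58. For A_96_P087629 and A_96_P137432 the ranges were −0.86 to 1.34 and −0.97 to 1.35 for the flg22 effect between times, −0.36 to 1.84 and −0.36 to 1.96 for flg22 at 24 h, and −0.024 to 2.18 and −0.048 to 2.27 for MBI600 CFCF against flg22 at 24 h. In the control between times they were −0.41 to 1.23 for A_96_P137462, −0.56 to 1.34 for A_96_P139547 and −0.026 to 0.77 for A_96_P145311, and for A_96_P139547 with flg22 at 6 h −0.53 to 1.37. The cause was not tested.

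The MBI600 CFCF value of PR1b1 at 24 h ranged from 3.24 (mean of its 6 probes) to 5.24 (slide as a term), with adjusted p from 0.123 to 1.00 over all alternatives. No paired origin is given for the replicate numbers, and deviations of same-numbered arrays correlated at −0.52 to 0.68 over 15 pairs of groups (9 over 0.1). With the replicate block that value was 4.51 (adjusted p = 0.527), and the block changed no call of a member. Quantile normalization of log2 values was added after seeing the data and changed no call, and leaving out arrays for the other listed genes was also added then. The number of calls over all probes varied widely, for example from 0 to 169 against 83 for flg22 at 6 h. Signal depth limits A_96_P181264, which is not well above background on 9 arrays.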

Other observations

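The red channel was well above background for the 3 named probes on all 12 arrays, and the sources used here do not say what it held. Its log2 signal for PR1b1 stayed between 12.33 and 12.71, while the green signal ran from 8.15 to 14.81. For NPR1 the red signal was 9.13 to 9.18 on the 4 arrays of slide 2 and 9.39 to 9.84 on the other 8. For the PR1b1 probe A_96_P139547 it was 10.04 to 10.22 on slide 2 and 8.82 to 9.73 on the other 8, and for A_96_P087629 10.61 to 10.75 and 9.84 to 10.60. For EDS1 the red signal ranged from 9.97 to 10.31. The part of these slide differences in the green to red ratio was not tested.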
